A study of Homo sapiens with 4 samples.

Results

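The genes described here are 10 members of the transforming growth factor beta (TGF-beta) pathway, taken by name from the 23362 genes of the deposited expression table. They are the ligands GDF15, TGFB1, TGFB2 and INHBA, the receptors TGFBR1 and TGFBR2, and the signal carriers SMAD2, SMAD3, SMAD4 and SMAD7. All 10 were found in the table, each under a single entry. They were measured by RNA sequencing in MKN28, a human gastric adenocarcinoma cell line, with 1 library for each of 4 groups. Luc cells carried luciferase and served as the general control. WT cells carried KIAA1324, a transmembrane glycoprotein, in its unaltered form. 3NQ cells carried KIAA1324 with the asparagines of its 3 putative N-glycosylation sites exchanged for glutamine. The cells labelled ΔTM were made to carry a form without the transmembrane domain. All constructs were tet-on, that is, switched on by doxycycline, and had been brought in by a retrovirus followed by drug selection, so that the groups are selected populations of the same line. The sources used here do not state whether doxycycline was given before this RNA was taken.

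TGF-beta ligands are secreted dimers that first bind a type II receptor, which then activates a type I receptor. The activated type I receptor phosphorylates SMAD2 and SMAD3, these join SMAD4, and the complex moves to the nucleus and regulates target genes. SMAD7, itself a target gene, binds the type I receptor and damps the signal. In the gut epithelium the pathway restrains growth, and gastric tumors often lose a receptor or a SMAD.

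KIAA1324 had an FPKM (sequenced fragments, scaled to transcript length and to library size) of 2.86 for Luc, 11185 for WT and 8197 for 3NQ, but was listed at 0 in the fourth library, which is therefore called the library labelled ΔTM. The 4 libraries had between 11297 and 11406 genes at an FPKM of at least 1, and their depth is unknown because no read counts were used. The epithelial identity of the line was checked on 11 markers. EPCAM, CDH1, KRT8, KRT18, KRT19 and CLDN4 were expressed in every library, with EPCAM between 345 and 391, whereas the gastric markers CLDN18, TFF1, MUC5AC, GKN1 and MUC6 were at or near 0. The summed FPKM of these 11 markers was 13639 for Luc, 7922 for WT, 11883 for the library labelled ΔTM and 10298 for 3NQ, most of it from KRT8 and KRT18, both more than 1.5-fold lower in WT than in Luc. The part of this shift in the results was not tested. Of 7 fibroblast markers only COL1A1, also made by some cancer cells, reached an FPKM of 1, of 6 leukocyte markers only CD68 did, and of the 3 endothelial markers in the table none did. With a single library in each group no test of a difference between groups was possible, and every comparison below describes these 4 libraries.

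The 8 members that reached an FPKM of 1 in a library differed widely in level. GDF15 was the most abundant, with a mean FPKM of 139 over the 4 libraries, above 94.2% of the 11769 genes that reached 1 in at least 1 library. It was followed by SMAD3 (mean 46.1), SMAD2 (42.3), TGFBR2 (34.8), SMAD4 (32.3), TGFB1 (18.6), TGFBR1 (11.7) and SMAD7 (10.02). The ranges over the libraries overlapped for SMAD3 and SMAD2, for TGFBR2 and SMAD4, and for TGFBR1 and SMAD7. Within each library SMAD3 was above SMAD2 and TGFBR1 above SMAD7, whereas TGFBR2 and SMAD4 changed places, and without replicates the error of these orders is unknown. INHBA (mean 0.0504) and TGFB2 (mean 0.0140) lay below an FPKM of 0.1 in every library and did not pass the filter.

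**Figure D1:**
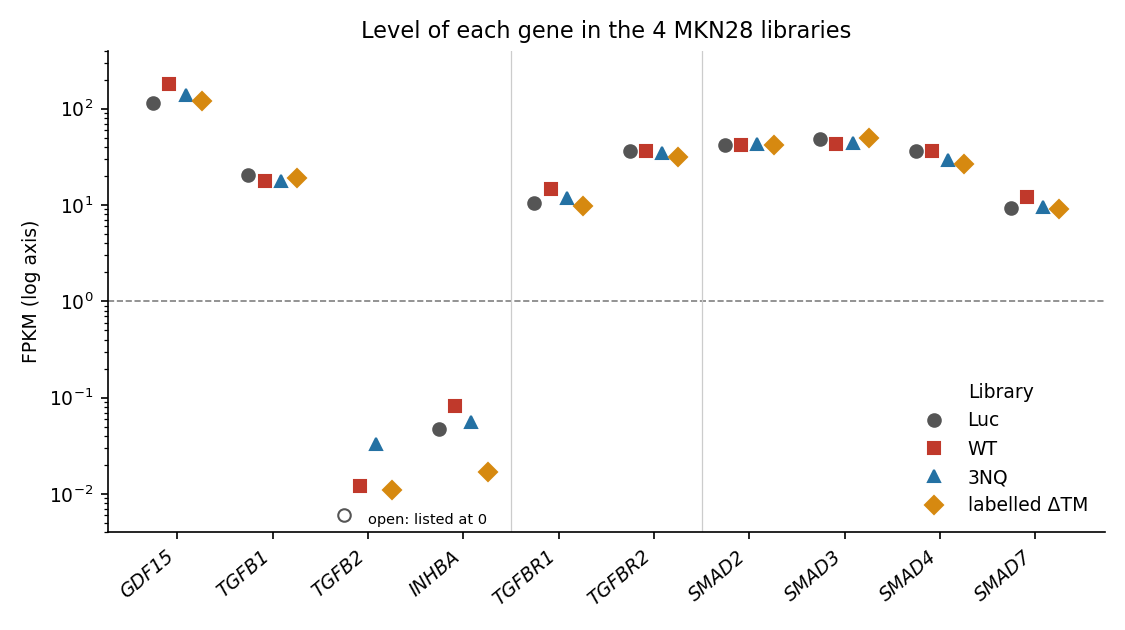
FPKM of the 10 genes on a log axis, with 1 point for each library and the dashed line at the filter of 1 FPKM, where grey lines part ligands, receptors and SMADs. GDF15 stands highest in every library, 8 genes lie between 9.02 and 179, and TGFB2 and INHBA lie below 0.1, with TGFB2 listed at 0 in Luc.

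Of the members that passed the filter, GDF15, TGFBR1 and SMAD7 had the largest ratios of WT to Luc, and the sequences just before their start sites are shown so that the reader can see which DNA lies there. Each is the 250 bases before the RefSeq start of the gene in GRCh38.p14, a build other than the GRCh37 of the deposited table, and is read 5′ to 3′ on the gene's own strand. All 10 members matched the RefSeq table. Capitals mark the SMAD box CAGAC on either strand and the TATA box TATAAA.
GDF15, chr19:18385908-18386157, plus strand: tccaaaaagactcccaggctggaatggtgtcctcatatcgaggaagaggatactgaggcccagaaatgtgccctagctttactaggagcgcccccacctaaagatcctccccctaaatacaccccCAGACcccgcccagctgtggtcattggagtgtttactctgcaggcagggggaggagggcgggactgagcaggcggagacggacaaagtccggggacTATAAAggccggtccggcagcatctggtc
TGFBR1, chr9:99104863-99105112, plus strand: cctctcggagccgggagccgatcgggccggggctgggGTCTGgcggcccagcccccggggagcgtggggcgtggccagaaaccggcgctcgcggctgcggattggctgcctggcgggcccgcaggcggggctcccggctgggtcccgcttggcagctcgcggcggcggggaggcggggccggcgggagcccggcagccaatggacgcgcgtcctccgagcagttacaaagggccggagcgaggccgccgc
SMAD7, chr18:48950966-48951215, minus strand: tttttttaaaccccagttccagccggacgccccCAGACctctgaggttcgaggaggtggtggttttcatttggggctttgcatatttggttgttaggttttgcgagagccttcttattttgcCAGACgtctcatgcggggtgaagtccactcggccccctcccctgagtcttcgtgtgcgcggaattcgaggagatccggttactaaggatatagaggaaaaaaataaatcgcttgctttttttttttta

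The GDF15 window held 1 SMAD box and a TATA box that begins 29 bases before the start. The TGFBR1 window held 1 SMAD box, on the opposite strand, and the SMAD7 window held 2. The window of TGFB2, which did not pass the filter, held 2 as well, and those of the remaining members held none. A SMAD box in either orientation was present in 38.0% of the 35116 promoter windows of the same length, and TATAAA in 10.7%. The longer SMAD palindrome GTCTAGAC, present in 0.182% of all windows, was in none of the 10 members' windows, nor were the AP-1 site TGANTCA (6.57% of all windows), the cAMP response element TGACGTCA (1.65%) or the ATF4-type site TGATGNAA (3.14%), each searched on both strands. TATAAA was found in GDF15, TGFB2 and INHBA, and in no receptor or SMAD. The base composition differed widely, from 40.8% G and C in TGFBR2 and 42.8% in INHBA to 79.6% in TGFBR1 and 80.8% in SMAD3, where the median of all windows was 58%. These matches describe letters in a window and not bound sites. A single window of 250 bases was searched for each gene. Sites further upstream, past the start or at another start of the gene would be missed, those of SMAD7 included.

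Differences were measured as log2 ratios of FPKM + 1, which understates the change of low genes, and a gene was called where the ratio reached 1.5-fold. Of the 8 members that passed the filter, 1 was called in WT against Luc, where 6.7% of all tested genes were called, 3.36% as higher and 3.34% as lower. None was called in 3NQ, where 4.34% of all tested genes were, 1.77% as higher and 2.57% as lower. None was called in the library labelled ΔTM either, where 3.11% were, 1.54% as higher and 1.57% as lower. These shares of 8 genes amount to less than 1 gene, so the counts do not set the members apart from other genes. The median ratio of the 8 members was 0.01 for WT, −0.07 for the library labelled ΔTM and −0.01 for 3NQ, beside −0.0049, −0.06 and −0.04 over all tested genes in the same order.

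GDF15 (ENSG00000130513, chromosome 19 from 18485541 to 18499987 on the plus strand of GRCh37) was the member that was called. It encodes a distant member of the family that epithelial cells secrete under stress. Its FPKM was 115 for Luc, 179 for WT, 121 for the library labelled ΔTM and 139 for 3NQ. WT was thus the highest library, 3NQ lay between, and the library labelled ΔTM was 5.69% above Luc. The log2 ratio to Luc was 0.64 in WT, or 1.57-fold by FPKM, 0.08 in the library labelled ΔTM and 0.28 in 3NQ. In WT, 2.62% of all tested genes had a ratio at least as high. The call in WT was lost at a 2-fold threshold and against the mean of 3NQ and the library labelled ΔTM, where the ratio was 0.46. In bulk RNA, a larger share of cells with the transcript and more transcript per cell cannot be told apart. GFRAL, the receptor of GDF15 in the brainstem, was listed at 0 in every library, and its partner RET did not exceed 0.06.

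TGFB1 (ENSG00000105329, chromosome 19 from 41807492 to 41859816, minus strand) encodes the best known ligand of the family, which most cells secrete in latent form. Its FPKM was 20.3 for Luc, 17.7 for WT, 18.9 for the library labelled ΔTM and 17.6 for 3NQ, and the ratio to Luc was −0.19 for WT, −0.09 for the library labelled ΔTM and −0.20 for 3NQ. All 3 other libraries were thus below Luc, but 24.6% of the tested genes were at least as low in WT. CCDC97 lies wholly inside TGFB1 on the opposite strand, and its FPKM was 8.66 in Luc and 11.6 in WT. HNRNPUL1 overlaps TGFB1 on that strand over 6012 bases, and its FPKM was 104 in Luc and 85.8 in WT. BCKDHA and TMEM91, on that strand as well, overlap TGFB1 over 3059 and 3001 bases. These overlaps are of whole gene spans, and whether exons are shared was not examined. The sources used here do not state whether strand was used in counting. How far reads of these genes enter the value of TGFB1 is therefore unknown. By FPKM, GDF15 exceeded TGFB1 by 5.65-fold for Luc, 10.1-fold for WT, 6.39-fold for the library labelled ΔTM and 7.94-fold for 3NQ.

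TGFB2, a ligand of the same type, was listed at 0 in Luc and was 0.0120 for WT, 0.0110 for the library labelled ΔTM and 0.0328 for 3NQ. INHBA, the subunit of activin A, had an FPKM of 0.0475 for Luc, 0.0812 for WT, 0.0167 for the library labelled ΔTM and 0.0561 for 3NQ. No fold is drawn from values this low. The other ligands of the family were largely silent as well, since 5 of 29 passed the filter and 7 were at 0 in all libraries.

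BMP7, a bone morphogenetic protein, was the most abundant of these other ligands, with an FPKM of 70.3 for Luc, 69.6 for WT, 52.2 for the library labelled ΔTM and 42.7 for 3NQ. Luc and WT were alike, and 3NQ was called lower than Luc (−0.70). BMP4, at a low FPKM of 4.21 for Luc, 2.53 for WT, 3.52 for the library labelled ΔTM and 2.21 for 3NQ, was likewise called lower in 3NQ (−0.70), a call that did not hold with a pseudocount of 5 (−0.35). INHBE, which encodes another activin subunit, had an FPKM of 0.68 for Luc, 2.57 for WT, 0.69 for the library labelled ΔTM and 1.69 for 3NQ. It was called higher in WT (1.09) and in 3NQ (0.68), and at that pseudocount neither call held.

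TGFBR1 (ENSG00000106799, chromosome 9 from 101866320 to 101916474, plus strand) encodes the type I receptor that phosphorylates SMAD2 and SMAD3. Its FPKM was 10.6 for Luc, 14.6 for WT, 9.84 for the library labelled ΔTM and 12.0 for 3NQ. As for GDF15, WT was highest, followed by 3NQ, with the library labelled ΔTM below both. The ratio to Luc was 0.43 for WT, −0.09 for the library labelled ΔTM and 0.17 for 3NQ, short of the threshold in each. In WT, 6.81% of the tested genes had a ratio at least as high.

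TGFBR2 (ENSG00000163513, chromosome 3 from 30647994 to 30735634, plus strand), the type II receptor that first binds the ligand, had an FPKM of 36.3 for Luc, 36.8 for WT, 31.2 for the library labelled ΔTM and 35.0 for 3NQ. The ratio was 0.02 for WT, −0.21 for the library labelled ΔTM and −0.05 for 3NQ. Both receptors were highest in WT and lowest in the library labelled ΔTM. The type II receptor exceeded the type I receptor by 3.44-fold for Luc, 2.52-fold for WT, 3.17-fold for the library labelled ΔTM and 2.92-fold for 3NQ by FPKM.

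None of the other receptors and co-receptors was called, and 10 of 18 passed the filter. Among all tested genes, 6.7% were called in WT, 3.11% in the library labelled ΔTM and 4.34% in 3NQ. The median ratio of these receptors to Luc was −0.02 for WT, −0.22 for the library labelled ΔTM and −0.22 for 3NQ. Over all tested genes the median was −0.0049, −0.06 and −0.04 in the same order. ACVR1B, a type I receptor for activins, had an FPKM of 39.3 for Luc, 38.9 for WT, 28.8 for the library labelled ΔTM and 29.9 for 3NQ. TGFBR3, the co-receptor betaglycan, had the highest mean, at 46.9 for Luc, 36.0 for WT, 42.5 for the library labelled ΔTM and 33.0 for 3NQ. ACVR1B was thus lower in 3NQ and the library labelled ΔTM than in Luc and WT, whereas TGFBR3 was low in WT and 3NQ.

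SMAD2 (ENSG00000175387, chromosome 18 from 45357922 to 45457515, minus strand) varied least of the members. Its FPKM was 42.1 for Luc, 41.9 for WT, 42.1 for the library labelled ΔTM and 43.0 for 3NQ, a range of 0.04 on the log2 scale, and 99.7% of the tested genes had a range at least as wide. SMAD3 (ENSG00000166949, chromosome 15 from 67356101 to 67487533, plus strand), which shares its role as a receptor-activated SMAD, was 48.8 for Luc, 42.7 for WT, 49.4 for the library labelled ΔTM and 43.6 for 3NQ. The ratio of SMAD3 to Luc was −0.19 for WT, 0.02 for the library labelled ΔTM and −0.16 for 3NQ. The libraries with high KIAA1324 were thus the lower pair, but 24.1% of the tested genes were at least as low in WT and 29.1% in 3NQ.

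SMAD4 (ENSG00000141646, chromosome 18 from 48494410 to 48611415, plus strand) encodes the partner that SMAD2 and SMAD3 need. Its FPKM was 36.5 for Luc, 36.5 for WT, 26.7 for the library labelled ΔTM and 29.5 for 3NQ. WT and Luc were alike, and the other libraries were lower, with ratios of −0.44 in the library labelled ΔTM and −0.30 in 3NQ. The ratio of −0.44 was the lowest of any member against Luc, and 3.86% of the tested genes were at least as low there, but it did not reach the threshold. ELAC1 overlaps the start of SMAD4 on the same strand over 20082 bases, and its FPKM stayed between 2.08 and 2.78. By FPKM, SMAD2 exceeded SMAD4 by 1.15-fold in Luc and in WT, 1.58-fold in the library labelled ΔTM and 1.46-fold in 3NQ.

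SMAD7 (ENSG00000101665, chromosome 18 from 46446223 to 46477081, minus strand), the inhibitory SMAD, had an FPKM of 9.41 for Luc, 12.0 for WT, 9.02 for the library labelled ΔTM and 9.64 for 3NQ. WT stood above the other 3 libraries, which lay close together. The ratio to Luc was 0.32 for WT, −0.06 for the library labelled ΔTM and 0.03 for 3NQ, and 11.4% of the tested genes were at least as high in WT. The direction for the library labelled ΔTM turned to 0.0052 after rescaling by the median of ratios. Of the other SMADs, SMAD1 and SMAD5, which carry BMP signals, passed the filter, and SMAD1 was 6.11 for Luc, 8.13 for WT, 6.17 for the library labelled ΔTM and 6.60 for 3NQ. SMAD6 and SMAD9 did not pass.

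**Figure D2:**
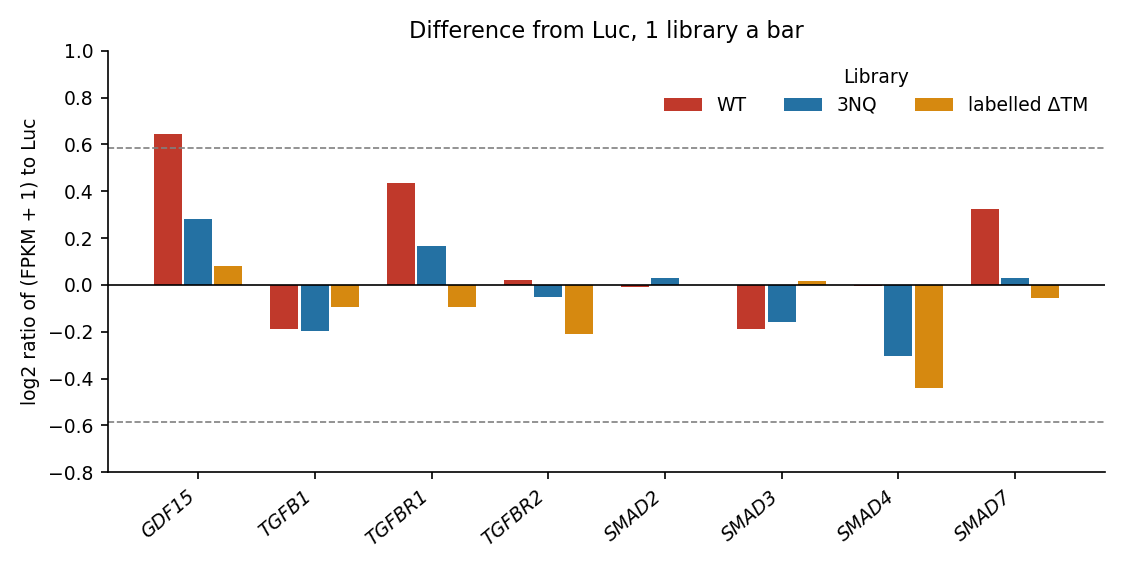
Log2 ratio of FPKM + 1 to Luc for the 8 genes that passed the filter, with a bar for each library and dashed lines at 1.5-fold. GDF15 in WT (0.64) is the single bar past a line, TGFBR1 (0.43) and SMAD7 (0.32) are next in WT, and SMAD4 is lowest in the library labelled ΔTM (−0.44).

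WT was also compared directly with 3NQ and with the library labelled ΔTM, which needs no Luc library. No member was called in WT against 3NQ, where 4.47% of all tested genes were, 2.89% as higher and 1.58% as lower. None was called in WT against the library labelled ΔTM, where 7.16% were, 4.25% as higher and 2.91% as lower. The latter split, 500 genes higher and 343 lower, turned to 394 and 435 after rescaling by the median of ratios and was 421 and 407 by the upper quartile. Against 3NQ, the ratio was 0.36 for GDF15, 0.30 for SMAD4, 0.29 for SMAD7 and 0.27 for TGFBR1. Against the library labelled ΔTM, it was 0.56 for GDF15, 0.53 for TGFBR1, 0.44 for SMAD4 and 0.38 for SMAD7. GDF15 and TGFBR1 thus lay just under the threshold of 0.585 in that comparison. SMAD3 was the member with the lowest ratio there (−0.21). The median ratio of the 8 members was 0.17 against 3NQ and 0.30 against the library labelled ΔTM, beside 0.03 and 0.05 over all tested genes. Against 3NQ, 6 of the 8 lay above 0, beside 54.8% of all tested genes. Against the library labelled ΔTM, 5 did, beside 57.0%. WT was the highest library for GDF15, TGFBR1, TGFBR2 and SMAD7, or 4 of the 8 members, and for 33.6% of all tested genes. The library labelled ΔTM was the lowest for TGFBR1, TGFBR2, SMAD4 and SMAD7, also 4 of 8, and for 31.8% of all tested genes.

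The rest of the pathway was followed through 134 further genes in lists of ligands, receptors, SMADs, extracellular and intracellular regulators and target genes, together with stress genes that are not part of the pathway. Of these, 79 passed the filter. In WT, 13 were called higher than Luc, or 16.5%, beside 3.36% of all tested genes, and none was called lower, beside 3.34%. In 3NQ, 3 were called higher and 5 lower, beside 1.77% and 2.57% of all tested genes. In the library labelled ΔTM, 1 was called higher and 3 lower, beside 1.54% and 1.57%. Against the library labelled ΔTM, 14 were called higher in WT and none lower, beside 4.25% and 2.91%. Against 3NQ, 8 were called higher in WT and 2 lower, the latter being THBS1 and TGFBI, beside 2.89% and 1.58%. Without the genes that stand in the stress list alone, 68 passed, of which 9 were called higher in WT and none lower. With a pseudocount of 5, the calls left in WT were NEDD4L, CDKN1A, CHAC1, DDIT3 and SESN2, those left in 3NQ were NEDD4L, BMP7 and DDIT3, and that of FN1 in the library labelled ΔTM was lost. A gene can stand in more than 1 list. The lists were chosen with earlier results of these libraries known, and the stress genes among them were included because they are known to rise with GDF15.

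The extracellular list holds proteins that store, activate or trap ligands, and 12 of its 20 genes passed. In WT, 2 were called higher, namely BAMBI and FSTL3, beside 3.36% of all tested genes. BAMBI, a decoy receptor that lacks the kinase domain, had an FPKM of 6.16 for Luc, 10.1 for WT, 4.52 for the library labelled ΔTM and 6.41 for 3NQ. FSTL3, which binds activin, was 4.13 for Luc, 6.86 for WT, 4.12 for the library labelled ΔTM and 6.24 for 3NQ. BAMBI was thus high in WT alone, whereas FSTL3 was high in WT and 3NQ. Neither call held with a pseudocount of 5, which gave 0.43 for BAMBI and 0.38 for FSTL3. ITGB8, an integrin subunit that helps to release latent TGF-beta, was 5.71 for Luc, 6.12 for WT, 4.06 for the library labelled ΔTM and 3.47 for 3NQ, and was called lower in 3NQ (−0.59). That call was lost after rescaling by the median of ratios (−0.55). LTBP3, which binds latent TGF-beta, and FURIN, the protease that cleaves the precursor, were abundant, with FPKM of 70.2 to 80.9 and 161 to 180.

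Of 18 intracellular regulators, 17 passed the filter, with a median ratio of 0.20 for WT, −0.12 for the library labelled ΔTM and −0.05 for 3NQ. Over all tested genes the median was −0.0049, −0.06 and −0.04 in the same order. NEDD4L, a ubiquitin ligase that can mark SMADs for degradation, had an FPKM of 199 for Luc, 1753 for WT, 118 for the library labelled ΔTM and 108 for 3NQ. It was called in all 3 comparisons, higher in WT (3.13) and lower in 3NQ (−0.87) and the library labelled ΔTM (−0.75). PMEPA1, a target gene that keeps SMADs from the receptor, was 5.96 for Luc, 10.9 for WT, 5.80 for the library labelled ΔTM and 10.6 for 3NQ. It was called higher in WT (0.77) and 3NQ (0.73), and neither call held with a pseudocount of 5. SKIL, a SMAD repressor that is itself a target, was 25.0 for Luc, 36.2 for WT, 18.1 for the library labelled ΔTM and 24.3 for 3NQ. Its ratio to Luc (0.52 in WT) was below the threshold, while WT against the library labelled ΔTM (0.96) was above it. SMURF1, the ligase that SMAD7 recruits, was 13.2 for Luc, 17.0 for WT, 9.96 for the library labelled ΔTM and 12.7 for 3NQ, with the same outcome (0.34 and 0.71), although 0.71 fell to 0.55 with a pseudocount of 5.

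Among 30 genes listed as targets of TGF-beta, 20 passed the filter. In WT, 3 were called higher (PMEPA1, BAMBI and CDKN1A) and none lower, in 3NQ PMEPA1 alone was called higher, and in the library labelled ΔTM FN1 alone was, in the lower direction. Among all tested genes, 3.36% were called higher in WT, 1.77% higher in 3NQ and 1.57% lower in the library labelled ΔTM. The median ratio of these targets was 0.11 for WT, −0.07 for the library labelled ΔTM and −0.05 for 3NQ. Over all tested genes the median was −0.0049, −0.06 and −0.04 in the same order. FN1, which encodes fibronectin, had an FPKM of 17.7 for Luc, 14.6 for WT, 10.9 for the library labelled ΔTM and 12.6 for 3NQ. FN1 was thus highest in Luc, whereas SMAD7, SKIL, BAMBI and PMEPA1 were highest in WT. CTGF, a classical readout of the pathway, was low, at 1.17 for Luc, 1.27 for WT, 1.01 for the library labelled ΔTM and 1.52 for 3NQ. CDKN2B and LMCD1 were listed at 0 in every library.

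The list of BMP targets had 7 of 11 genes past the filter, of which ID1, ID2 and ID4 were called higher in WT and none in 3NQ or the library labelled ΔTM. ID1 and ID2 encode inhibitors of differentiation that answer to SMAD1 and SMAD5. ID1 had an FPKM of 9.66 for Luc, 15.3 for WT, 9.91 for the library labelled ΔTM and 10.1 for 3NQ. ID2 was 25.4 for Luc, 39.5 for WT, 25.1 for the library labelled ΔTM and 25.4 for 3NQ. Both were about equal in Luc, 3NQ and the library labelled ΔTM and higher in WT, whereas ID3 lay between 4.26 and 4.48 in all 4. The call of ID4 rested on low values, 0.18 in Luc and 1.07 in WT. With a pseudocount of 5 none of the 3 calls held, with ratios of 0.47 for ID1, 0.55 for ID2 and 0.23 for ID4.

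**Figure D3:**
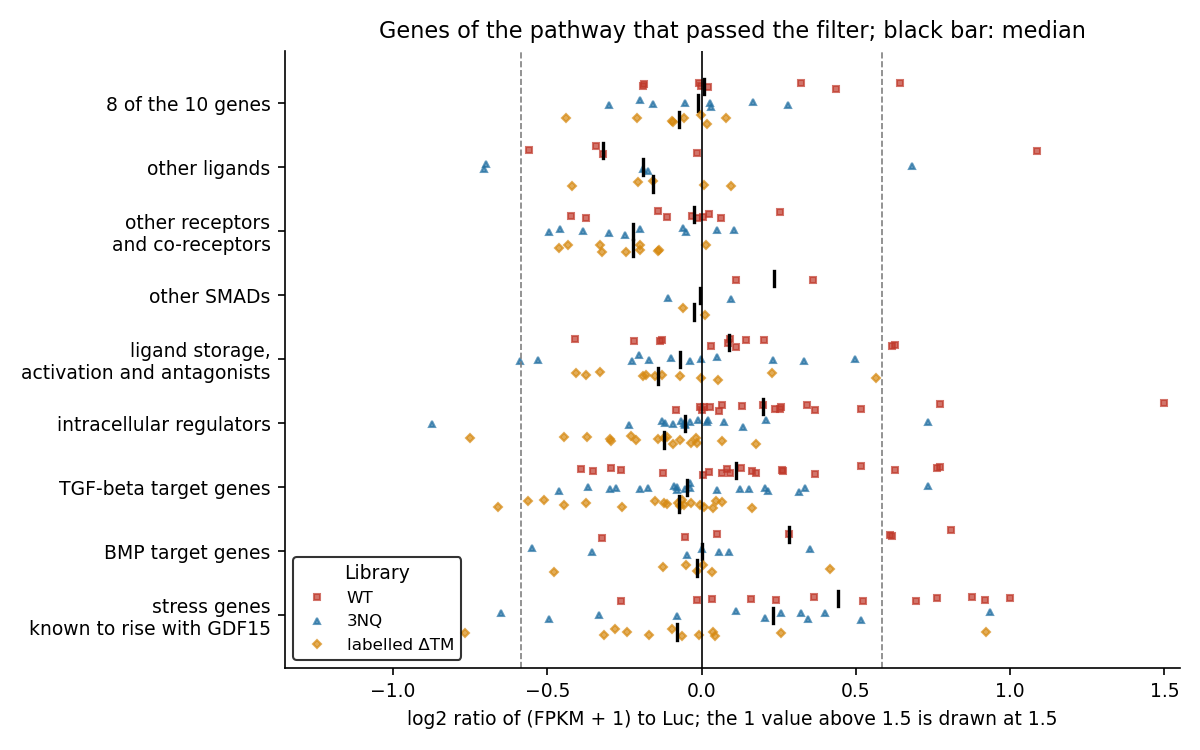
Log2 ratio of FPKM + 1 to Luc for each gene that passed the filter, by list and library, with black bars at the list medians and dashed lines at 1.5-fold. The WT points past the upper line number 13 different genes outside the members, and no WT point lies past the lower line, while NEDD4L (3.13) is drawn at the edge.

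The last list holds 12 genes of cellular stress responses, among them the integrated stress response and the p53 response, that were listed as known to rise with GDF15. All 12 passed the filter, and 5 were called higher in WT, namely ATF3, CDKN1A, CHAC1, DDIT3 and SESN2. Among all tested genes, 3.36% were called higher in WT. DDIT3 alone was called higher in 3NQ as well as in the library labelled ΔTM, and DDIT4 alone was called lower in them. Among all tested genes, 1.77% were called higher and 2.57% lower in 3NQ, and 1.54% and 1.57% in the library labelled ΔTM. The median ratio of the list was 0.44 for WT, −0.08 for the library labelled ΔTM and 0.23 for 3NQ. Over all tested genes the median was −0.0049, −0.06 and −0.04 in the same order, and GDF15 itself had 0.64, 0.08 and 0.28. CHAC1, which degrades glutathione, had an FPKM of 11.8 for Luc, 23.1 for WT, 9.26 for the library labelled ΔTM and 15.2 for 3NQ. SESN2, a stress sensor upstream of mTOR, was 8.57 for Luc, 16.6 for WT, 8.86 for the library labelled ΔTM and 12.7 for 3NQ. In both, 3NQ lay between Luc and WT, as it did for GDF15.

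DDIT3, the stress factor CHOP, did not follow this order. Its FPKM was 10.04 for Luc, 21.1 for WT, 19.9 for the library labelled ΔTM and 20.1 for 3NQ, so that Luc alone was low. DDIT4, an inhibitor of mTOR, was 17.6 for Luc, 19.8 for WT, 9.92 for the library labelled ΔTM and 10.8 for 3NQ, and was called lower in the library labelled ΔTM (−0.77) and in 3NQ (−0.65). ATF4, the regulator upstream of many of these genes, was highest in Luc, at 367, and was 306 for WT, 302 for the library labelled ΔTM and 261 for 3NQ. CDKN1A was called higher in WT (0.76), and neither ASNS nor NFE2L2 was called in any comparison with Luc.

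**Figure D4:**
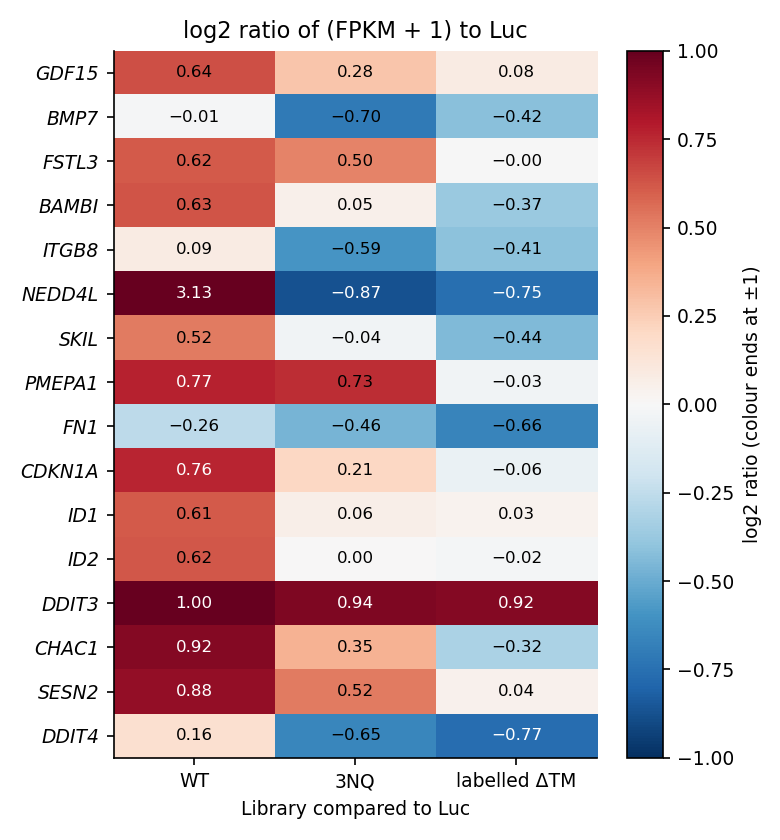
Log2 ratio of FPKM + 1 to Luc for GDF15 and 15 further genes of the lists (rows) in WT, 3NQ and the library labelled ΔTM (columns), with red above and blue below Luc. CHAC1 and SESN2 grade from WT through 3NQ as GDF15 does, ID1 and ID2 are high in WT alone, and DDIT3 is between 0.92 and 1.00 in all 3.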

How the data were processed

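RNA of MKN28 cells was analysed as 1 library in each of 4 groups, assigned by sample title. The deposited values are FPKM, which the authors estimated per gene with Cufflinks 2.1.1 on Ensembl release 72 after quality filtering and TopHat mapping to GRCh37, with non-coding genes masked and with the options that correct for reads of several origins and for biased fragmentation. Reads were not used here, so depth is unknown and no interval could be given.

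Log2 ratios of FPKM + 1 were taken in Python 3.11.15 (pandas 2.3.3, numpy 2.4.6) for the 11769 genes that reached an FPKM of 1 in any library, and called at 1.5-fold, because 1 library a group allows no test. The code of the calling step was tested on simulated data, with changes of at least 2-fold planted in genes at an FPKM of at least 5. That test says nothing about calls near 1.5-fold or about the error between libraries. Of entries repeating a symbol (166), the higher mean was used for the lists. The members and lists were chosen with earlier results of these data known, and the lists were written from general knowledge. All members are named. From each list, up to 5 called genes with an FPKM of at least 5 are named by size of ratio, others for their role. Genes named in a count of 5 or fewer, such as INHBE, BMP4 and ID4, were chosen after their values were seen. Promoter windows came from RefSeq (GRCh38.p14), and figures from matplotlib 3.10.9. Alternatives were the pseudocount, the filter, the threshold, rescaling, summing repeated symbols and another control for WT.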

Additional observations from a re-analysis of the deposited data

How the results depend on the processing

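The ratios of the members gave 328 values over 9 alternatives, of which 326 kept their side of the threshold. The exceptions were GDF15 in WT against Luc at 2-fold and against the average of 3NQ and the library labelled ΔTM, where the count of members called was 0 instead of 1. Over the alternatives, the ratio of GDF15 in WT ran from 0.46 to 0.65. Directions of SMAD2, SMAD4 and TGFB1 near 0 also turned with rescaling, none of them called. Higher genes were 49.5% of the calls in the library labelled ΔTM, 60.5% after rescaling by the median of ratios and 54.6% by the upper quartile. No paired analysis was possible because each group has 1 library, and for the same reason no replicate could be left out. Low values limit INHBA, TGFB2, INHBE and ID4 most.

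Counts moved by over 1.5 times with the pseudocount, the filter or the threshold. Genes of the lists, stress genes included, called against Luc numbered 13 for WT, 4 for the library labelled ΔTM and 8 for 3NQ. With a pseudocount of 0.1 they numbered 9 in the library labelled ΔTM and 13 in 3NQ. A pseudocount of 5 gave 5 in WT and 3 in 3NQ, and a 2-fold threshold gave 2 in WT and 0 in the other libraries. Without the genes of the stress list alone, an alternative chosen after seeing the data, they numbered 9 in WT, 2 in the library labelled ΔTM and 6 in 3NQ. Over all genes, a pseudocount of 0.1 gave 600 higher and 659 lower in WT, 378 and 582 in 3NQ, 333 and 387 in that labelled ΔTM, 583 and 349 in WT against 3NQ, and 770 and 561 in WT against the library labelled ΔTM. A pseudocount of 5 gave 147 and 128, 98 and 92, 88 and 56, 100 and 67, and 178 and 140 in the same order. A 2-fold threshold gave 79 and 67, 58 and 61, 71 and 51, 58 and 49, and 87 and 85. A minimum FPKM of 5 left 253 lower in WT, 101 in the library labelled ΔTM and 180 in 3NQ, and 226 higher and 108 lower in WT against 3NQ, where fewer genes were tested.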

Other observations

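The profile of GDF15, the member with the widest range over the libraries, was set beside those of 9385 genes that reached an FPKM of 5, by the Euclidean distance between log2 profiles centred on their mean over the 4 libraries. The nearest were COG3 (distance 0.0209), KLHL21 (0.0279), C3ORF83 (0.0351), URGCP (0.0371) and SEC31A (0.0389). COG3 had an FPKM of 9.55 for Luc, 15.4 for WT, 10.1 for the library labelled ΔTM and 11.6 for 3NQ. In the same order, KLHL21 had 18.6, 29.2, 19.2 and 22.2, and C3ORF83 had 3.74, 6.58, 3.96 and 4.83. URGCP had 13.3, 20.9, 13.6 and 15.9, and SEC31A had 67.1, 102, 69.2 and 80.8. With 4 points and no replicates, likeness of profile is a description of these libraries. For SMAD2, the member with the narrowest range, the nearest were P4HA1 (0.0112), TMEM63A (0.0120), SNX17 (0.0122), COPS5 (0.0131) and C16orf13 (0.0138), all nearly flat.

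SMAD2, SMAD7 and SMAD4 lie within 3.25 Mb of chromosome 18, from 45357922 to 48611415 in GRCh37, among 23 genes of the table. Without these 3, 14 genes of the stretch passed the filter, with a median log2 ratio to Luc of −0.05 for WT, −0.04 for the library labelled ΔTM and −0.14 for 3NQ. The ratio of SMAD4 was below this median in the library labelled ΔTM and in 3NQ, and that of SMAD7 was above it in WT.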
